A study of Mus musculus with 16 samples.

Results

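RNA from cultured mouse heart slices was sequenced, and 8 markers of Schwann cells and other peripheral glia are described here: S100b, Ngfr, Sox10, Kcna1, Gfra3, Cdh19, L1cam and Scn7a. They were found by their Ensembl identifiers among the 55487 genes of the count table, and each of the 8 reached 10 counts over all libraries and so was among the 24971 genes tested. The list was selected on measured values, with the levels and changes of these genes in all 4 groups in view, so their levels and changes are given as a description without a test. The groups were Swhtr null treated, Swhtr null untreated, WT treated and WT untreated, with 4 libraries in each. Swhtr null mice are homozygous for a transcriptional stop signal (Swhtr3xpA/3xpA) in the gene of the long non-coding RNA Sweetheart (Swhtr), had been backcrossed to C57BL6J and were bred from homozygous parents, and WT mice were C57Bl6/J. All were males aged 8 weeks, and slices were cut by hand after the apex and base of the heart had been taken off, from several mice of each genotype and more than one litter. Treated slices spent 7 days at 3% O2 and then 7 days at 21% O2, whereas untreated slices spent 14 days at 21% O2. Which library came from which mouse is not stated, so the spread between libraries may be in part technical. The level of Swhtr itself was not analysed here.

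Schwann cells are the glia of peripheral nerves. Myelinating Schwann cells wrap single large axons, while non-myelinating Schwann cells hold bundles of thin axons such as the autonomic fibres that run through heart muscle. After nerve injury, Schwann cells leave the myelinating state and take up a repair state in which Ngfr and other genes of the immature cell are high. Sox10 is the transcription factor that the lineage needs from the neural crest onwards. Many axons of the heart come from cell bodies outside it and are cut when slices are made.

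Library totals were 17830351 to 29941903 counts. Levels are CPM (counts scaled to a common library size after TMM normalization), with an SD taken over 4 libraries. Gene positions are those of GENCODE M21 (GRCm38). The labelled tissue is heart, and yet the summed level of 7 cardiomyocyte markers was only 6.29 to 90.1 CPM in Swhtr null treated, 4.46 to 10.1 CPM in Swhtr null untreated, 6.60 to 42.2 CPM in WT treated and 5.59 to 19.1 CPM in WT untreated libraries. Fibroblast markers summed to at least 12678 CPM in every library and macrophage markers to at least 3785 CPM. In bulk RNA, fewer cells of a type and less RNA per cell cannot be told apart.

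The glial label was checked against 3 further lists of 34 genes in all, of which 30 were tested. The neuregulin receptor Erbb3 averaged 4.04 CPM over the 16 libraries. The myelin genes Ugt8a, Fa2h and Pmp2 had 5, 1 and 1 counts in all libraries together, and Gjb1 had 0. Defining markers of other cells that share members of the list were also near 0. The melanocyte genes Tyr, Tyrp1 and Mlana had 1, 1 and 7 counts in all, and Olig2 and Opalin, markers of oligodendrocytes, had 0. Among neuronal genes Chat and Isl1 had 0 counts, Th had 2, Dbh 4, Slc18a3 3 and Syt1 8. Other genes of these lists that further cell types also express were abundant, such as Kit, at 151 ± 44.0 CPM in Swhtr null treated and 138 ± 8.68 CPM in Swhtr null untreated libraries, and the neuropeptide gene Npy, at 173 ± 48.8 CPM in Swhtr null treated and 177 ± 17.3 CPM in Swhtr null untreated libraries (SD, n = 4 each).

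Scaled by exon length, the markers ranked as follows over the 16 libraries. Ngfr had 3.60 CPM per kb, Scn7a 3.24 CPM per kb and L1cam 3.22 CPM per kb, and their group means overlapped within their standard deviations in every group. Cdh19 had 2.13 CPM per kb and S100b 1.95 CPM per kb, and these neighbours lay apart by more than their SDs in Swhtr null untreated libraries and not in the other groups. L1cam and Cdh19 lay apart in all groups but Swhtr null treated. Sox10 had 1.17 CPM per kb, Gfra3 0.676 CPM per kb and Kcna1 0.399 CPM per kb. The SDs of S100b and Sox10 overlapped in every group, as did those of Gfra3 and Kcna1, and those of Sox10 and Gfra3 overlapped in all groups but WT treated. The counts behind these levels were small for several genes, with 15 to 177 counts per library for S100b, 18 to 205 for Sox10, 15 to 54 for Gfra3 and 21 to 76 for Kcna1. Scn7a had 298 to 689 counts and L1cam 228 to 701.

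The 250 bases upstream of the start are shown for S100b and Ngfr, which had the largest fitted change of treated over untreated Swhtr null libraries with edgeR, the value for Sox10 being close to that of Ngfr and above it with limma voom. They are shown because Sox10 and its relatives bind short ACAAAG and ACAATG elements. The sequences are from RefSeq (GRCm38.p6), read 5′ to 3′ along the gene's strand. The S100b window is chr10:76253586-76253835 on the plus strand and the Ngfr window chr11:95587699-95587948 on the minus strand.
S100b: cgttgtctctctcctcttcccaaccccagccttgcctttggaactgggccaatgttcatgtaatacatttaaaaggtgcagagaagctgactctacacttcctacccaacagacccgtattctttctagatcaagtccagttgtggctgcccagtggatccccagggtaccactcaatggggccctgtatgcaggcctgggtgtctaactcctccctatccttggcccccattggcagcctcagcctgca
Ngfr: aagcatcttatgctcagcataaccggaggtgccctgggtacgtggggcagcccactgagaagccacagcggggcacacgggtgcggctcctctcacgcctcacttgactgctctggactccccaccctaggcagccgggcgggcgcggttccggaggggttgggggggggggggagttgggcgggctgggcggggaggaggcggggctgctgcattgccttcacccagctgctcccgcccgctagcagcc
Neither ACAAAG nor ACAATG, searched on both strands (reverse complements CTTTGT and CATTGT), occurs in these windows, so no letters stand in capitals. They were also not found in the windows of Scn7a and of 2 starts of L1cam. ACAAAG occurred in 16.5% of 32851 promoter windows of 250 bases, ACAATG in 10.7% and either in 25.2%. No window is shown for Sox10, Kcna1, Cdh19 and Gfra3. A match would be a description of letters and not a binding site.

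In Swhtr null slices all 8 markers had a higher fitted level in treated than in untreated libraries, with a median log2 fold change of 0.59, against 0.01 over all genes tested, of which 51.6% were above 0. A gene was called where edgeR's quasi-likelihood test gave an adjusted p under 0.05 with a log2 fold change past 0.58 in either direction, and S100b was the only marker called. Over all genes 0.621% were called in either direction and 0.316% as higher. DESeq2 called 2 markers and 1.84% of all genes, limma voom 0 markers and 0.897% of all genes, and at an unadjusted p under 0.05 in edgeR it was 5 markers and 16.5% of all genes. Since the markers were chosen with this contrast in view, nothing is read from these counts. With the replicate number as a block 2 markers and 2.47% of all genes were called. Several marker lists of other cells moved the same way, with 7 of 7 cardiomyocyte genes higher in Swhtr null treated libraries (median log2 fold change 3.39). So were 4 of 5 tested chondrocyte genes (1.03), 4 of 4 smooth muscle and pericyte genes (0.91) and 6 of 7 adipocyte genes (0.72). The same held for 4 of 4 endothelial genes (0.33) and 7 of 7 fibroblast genes (0.21). Epicardial genes were split, with 2 of 4 higher (0.08), and 6 of 6 macrophage genes were lower (-0.53). The part of these cells in the marker values was not tested.

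**Figure D1:**
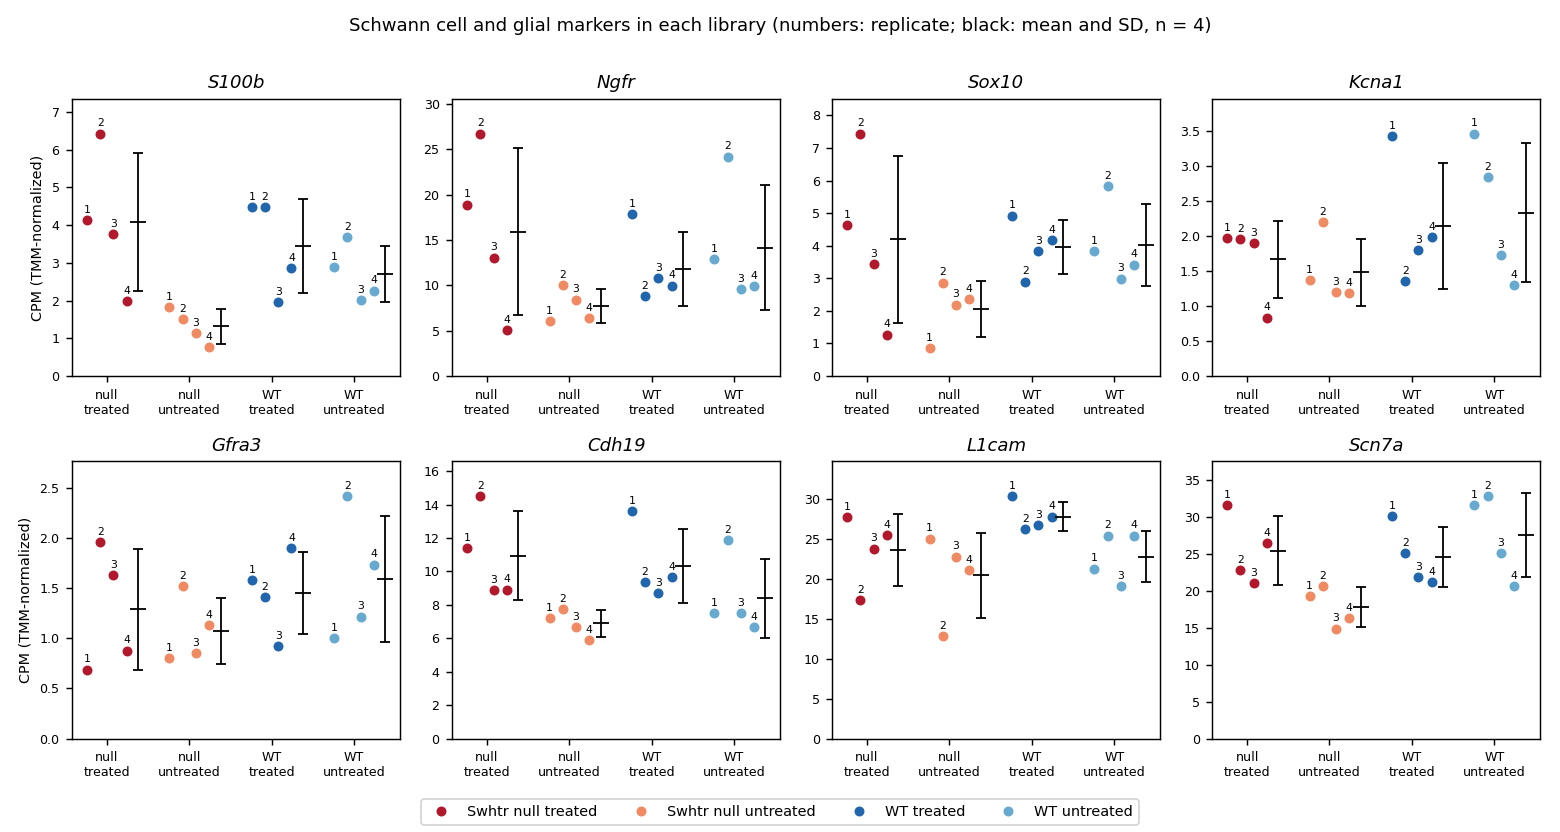
Level of each marker (CPM, TMM-normalized, linear axis from 0) in the 16 libraries, with the replicate number beside each point and the mean and SD of each group in black (n = 4). S100b, Cdh19 and Scn7a show Swhtr null treated libraries wholly above Swhtr null untreated ones, and Ngfr and Sox10 show a wide spread among Swhtr null treated libraries.

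S100b encodes a calcium-binding protein of Schwann cells that adipocytes and chondrocytes also make (chr10:76253853-76261159, plus strand). Its level was 4.12, 6.42, 3.77 and 1.99 CPM in Swhtr null treated libraries 1 to 4, against 1.84, 1.52, 1.147 and 0.77 CPM in Swhtr null untreated libraries 1 to 4. The groups did not overlap, and replicate 4 was the lowest in both. The log2 fold change was 1.62 (SE 0.355, n = 4 each), or 3.08-fold higher. In WT treated libraries the level was 4.47, 4.48, 1.96 and 2.86 CPM, against 2.89, 3.68, 2.01 and 2.26 CPM in WT untreated libraries. These groups overlapped, and the log2 fold change was 0.35 (SE 0.337). DESeq2 also called S100b in Swhtr null slices and limma voom did not. The call was lost without Swhtr null treated replicate 1 (log2 fold change 1.62), without Swhtr null treated replicate 2 (1.31), without Swhtr null untreated replicate 3 (1.56) and without Swhtr null untreated replicate 4 (1.44). Replicate numbers were taken to pair the Swhtr null libraries, which no label states. With the number as a block the log2 fold change was 1.59 (SE 0.225) and the call was kept. The S100b gene overlaps Dip2a on the opposite strand with 0 shared exon bases.

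The summed level of 6 chondrocyte markers was 95.9 to 212 CPM in Swhtr null treated and 19.0 to 90.7 CPM in Swhtr null untreated libraries, without overlap, and 59.2 to 145 CPM in WT treated and 26.3 to 71.9 CPM in WT untreated libraries. One of the 6, Matn1, was under 10 counts in all. For 7 adipocyte markers the sum was 711 to 865 CPM in Swhtr null treated and 629 to 881 CPM in Swhtr null untreated libraries. Gene by gene, 6 of these 7 had a higher fitted level in Swhtr null treated libraries (median log2 fold change 0.72). In WT treated libraries 7 of 7 did (0.59). The part of these cells in the S100b values was not tested.

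Cdh19 encodes a cadherin of the Schwann cell lineage (chr1:110888326-110977584, minus strand). It had 11.4, 14.5, 8.89 and 8.91 CPM in Swhtr null treated libraries, against 7.20, 7.76, 6.68 and 5.90 CPM in Swhtr null untreated libraries. The groups did not overlap. The log2 fold change was 0.67 (SE 0.194), which DESeq2 called and edgeR did not. With the replicate number as a block it was called, at 0.65 (SE 0.153), and without WT untreated replicate 2, which enters through the shared estimate of spread, it was called at 0.67. In WT slices Cdh19 had 13.6, 9.35, 8.73 and 9.65 CPM in treated libraries, against 7.502, 11.9, 7.52 and 6.65 CPM in WT untreated libraries. A single high WT untreated library made these groups overlap, and the log2 fold change was 0.30 (SE 0.193).

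Scn7a encodes an atypical sodium channel of glia and some neurons that senses sodium (chr2:66673425-66784914, minus strand). It had 31.5, 22.7, 21.0 and 26.4 CPM in Swhtr null treated libraries, against 19.3, 20.6, 14.9 and 16.3 CPM in Swhtr null untreated libraries. All 4 treated libraries lay above all 4 untreated ones, and the log2 fold change was 0.51 (SE 0.167). WT treated libraries had 30.1, 25.03, 21.8 and 21.2 CPM, against 31.5, 32.8, 25.04 and 20.6 CPM in WT untreated libraries. In WT the ranges overlapped, with a log2 fold change of -0.16 (SE 0.165). With S100b and Cdh19, Scn7a made 3 of 8 markers without overlap, where 5.19% of the 14229 genes with a mean of at least 1 CPM had Swhtr null treated libraries wholly above the untreated ones.

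Ngfr encodes the low-affinity neurotrophin receptor p75, which is high in immature, non-myelinating and repair Schwann cells (chr11:95568818-95587735, minus strand). It had 18.9, 26.7, 13.1 and 5.05 CPM in Swhtr null treated libraries, against 6.07, 10.01, 8.43 and 6.36 CPM in Swhtr null untreated libraries. Replicate 4 of the treated group was below every untreated library while replicates 1 to 3 were above them. The log2 fold change was 1.05 (SE 0.459). For Ngfr in WT slices the values were 17.8, 8.78, 10.8 and 9.98 CPM in treated libraries, against 12.9, 24.2, 9.62 and 9.92 CPM in WT untreated libraries. In each WT group 1 library stood high, and the log2 fold change was -0.26 (SE 0.449).

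Sox10 (chr15:79154908-79165240, minus strand) had 4.62, 7.44, 3.43 and 1.27 CPM in Swhtr null treated libraries, against 0.85, 2.87, 2.19 and 2.36 CPM in Swhtr null untreated libraries. The pattern was that of Ngfr, with treated replicates 1 to 3 above all untreated libraries and replicate 4 among them. The log2 fold change was 1.03 (SE 0.441). WT treated libraries had 4.92, 2.90, 3.84 and 4.17 CPM, against 3.83, 5.83, 2.99 and 3.42 CPM in WT untreated libraries. Here the log2 fold change was -0.02 (SE 0.424). When single libraries were left out, the Swhtr null log2 fold change ran from 0.59 to 1.33 for Sox10 and from 0.68 to 1.35 for Ngfr, and in none of these fits was either gene called.

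L1cam encodes a cell adhesion molecule of axons and non-myelinating Schwann cells (chrX:73853778-73896105, minus strand). It had 27.8, 17.3, 23.8 and 25.5 CPM in Swhtr null treated libraries, against 25.04, 12.8, 22.8 and 21.1 CPM in Swhtr null untreated libraries. Replicate 2 was the lowest of both groups, where it was the highest for most other markers, and the log2 fold change was 0.20 (SE 0.177). WT treated libraries had 30.4, 26.3, 26.8 and 27.8 CPM, against 21.3, 25.4, 19.1 and 25.4 CPM in WT untreated libraries. The WT groups did not overlap, with a log2 fold change of 0.29 (SE 0.176), and 2.38% of genes with a mean of at least 1 CPM had WT treated libraries wholly above the untreated ones. L1cam shares 100 of its 7347 exon bases with Arhgap4.

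Kcna1 encodes a voltage-gated potassium channel subunit of axons and Schwann cells (chr6:126640397-126646384, minus strand). It had 1.97, 1.96, 1.90 and 0.84 CPM in Swhtr null treated libraries, against 1.37, 2.19, 1.20 and 1.18 CPM in Swhtr null untreated libraries. The groups overlapped, with a log2 fold change of 0.17 (SE 0.358). Kcna1 values in WT slices were 3.43, 1.36, 1.80 and 1.98 CPM in treated libraries, against 3.46, 2.84, 1.73 and 1.30 CPM in WT untreated libraries. The WT log2 fold change was -0.12 (SE 0.345).

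Gfra3 encodes the receptor subunit that binds artemin (chr18:34689898-34720387, minus strand). It had 0.69, 1.96, 1.63 and 0.88 CPM in Swhtr null treated libraries, against 0.80, 1.52, 0.85 and 1.13 CPM in Swhtr null untreated libraries. These ranges overlapped, with a log2 fold change of 0.28 (SE 0.364). Gfra3 values in WT slices were 1.58, 1.41, 0.92 and 1.90 CPM in treated libraries, against 0.997, 2.42, 1.21 and 1.73 CPM in WT untreated libraries. The WT ranges overlapped as well, with a log2 fold change of -0.13 (SE 0.354).

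**Figure D2:**
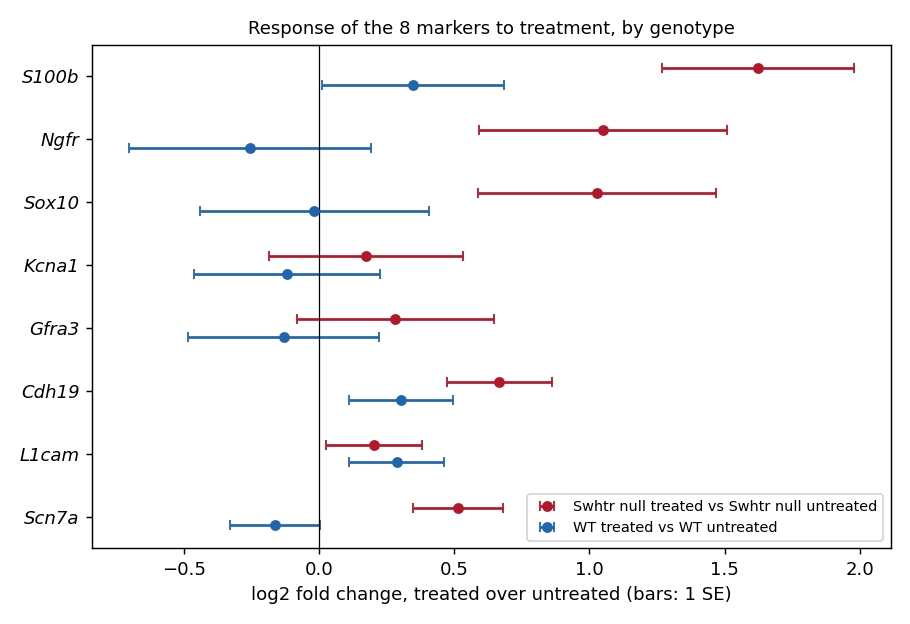
Log2 fold change of treated over untreated libraries for each marker, with bars of 1 SE, in Swhtr null (red) and WT slices (blue). All 8 Swhtr null values lie above 0, from 0.17 for Kcna1 to 1.62 for S100b, and the WT values lie from -0.26 for Ngfr to 0.35 for S100b.

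In WT slices 3 markers had a higher and 5 a lower fitted level in treated libraries, with a median log2 fold change of -0.07 against 0.01 over all genes, of which 51.9% were above 0. No marker was called, where edgeR called 0% of all genes. At an unadjusted p under 0.05 the count was 0 of 8 markers and 1202 genes in all (4.81%), and DESeq2 called 9 genes (0.036%) and limma voom 5 (0.02%), none of them a marker. The difference between the responses of the genotypes was positive for 7 of 8 markers, with a median of 0.55, and for 50.2% of all genes. It was 1.28 for S100b (SE 0.489), 1.31 for Ngfr (SE 0.641) and 0.68 for Scn7a (SE 0.235). No marker and 0% of all genes were called for this difference by edgeR, DESeq2 or limma voom, and 2 markers and 6.89% of all genes had an unadjusted p under 0.05. With the replicate number as a block, S100b (1.27, SE 0.308) and Scn7a (0.67, SE 0.132) were called for this difference, as were 0.208% of all genes. However, in WT slices only 2 of 4 same-numbered pairs correlated above 0.1, so the numbers were not taken to pair those libraries. The 2 responses share no libraries, but each shares libraries with the comparisons of genotypes that follow.

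Between genotypes, all 8 markers had a lower fitted level in Swhtr null untreated than in WT untreated libraries, with a median log2 fold change of -0.64 against 0 over all genes, of which 49.8% were above 0. For L1cam the value was -0.15, and 0.01 without Swhtr null untreated replicate 2. No marker was called, where edgeR called 0.1% of all genes, DESeq2 0.132% and limma voom 0.1%, and 3 of 8 markers had an unadjusted p under 0.05, as did 5.36% of all genes. S100b and Sox10 did not overlap between the genotypes, with log2 fold changes of -1.03 (SE 0.363) and -0.96, and 1.64% of genes with a mean of at least 1 CPM had Swhtr null untreated libraries wholly below the WT ones. The value for Scn7a was -0.63 (SE 0.168), with overlap, and with the number as a block it was called at -0.62 (SE 0.105), as were 0.128% of all genes. The genotypes come from different mice, and their same-numbered untreated libraries correlated at 0.00762 to 0.378. Not every same-numbered pair passed 0.1, so the numbers were not taken to pair these libraries. Still, 3 of 4 Swhtr null untreated libraries were closest to the WT untreated library of their own number. The Swhtr null treatment comparison, where the numbers were taken as pairs, also had 3 of 4. Whether a shared number marks a shared batch or litter was not tested. In treated slices 5 markers were higher and 3 lower in Swhtr null than in WT libraries, with a median of 0.07, and 49.7% of all genes were higher. With limma voom S100b, Ngfr, Sox10 and Cdh19 turned lower in this comparison (Sox10 to -0.51, against 0.08 with edgeR). No marker was called there, where edgeR called 0.0921% of all genes, DESeq2 0.14% and limma voom 0.0921%, and 0 markers had an unadjusted p under 0.05, against 6.25% of all genes. The group mean was lowest in Swhtr null untreated libraries for all 8 markers, as it was for 32.3% of genes with a mean of at least 1 CPM. The treatment comparison in Swhtr null slices and the comparison of untreated genotypes both use these same 4 low libraries.

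**Figure D3:**
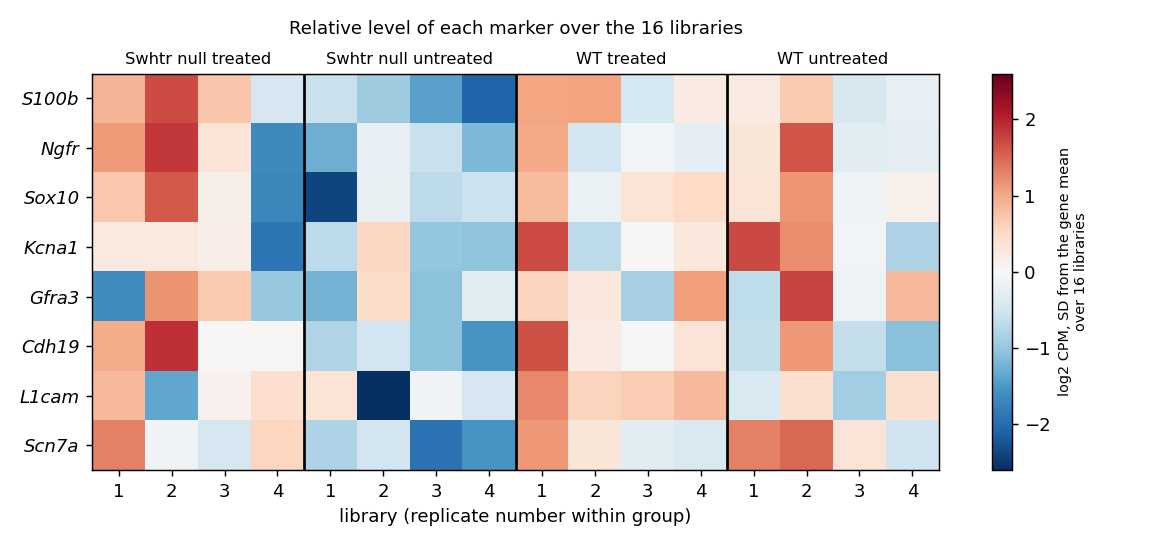
Log2 CPM of each marker in the 16 libraries, as SD from the mean of that gene, with groups separated by black lines. Swhtr null untreated libraries are mostly blue (below the mean), replicate 2 is red for most markers in Swhtr null treated and WT untreated slices, and L1cam goes its own way.

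Single libraries carried much of the variation within groups. Swhtr null treated replicate 2 had the highest level of its group for S100b, Ngfr, Sox10, Gfra3 and Cdh19, and the lowest for L1cam. The same library had a summed macrophage marker level of 3785 CPM, against 6838 to 9061 CPM in the other Swhtr null treated libraries, and a cardiomyocyte sum of 90.1 CPM. Replicate 2 was highest for 6 markers in Swhtr null untreated and for 6 in WT untreated libraries, and WT treated replicate 1 for 6. Macrophage sums were 3785 to 9061 CPM in Swhtr null treated and 7358 to 11274 CPM in Swhtr null untreated libraries, and their part in the marker values was not tested.

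Most of the markers other than L1cam varied together over the 16 libraries. Among the 21 pairs without L1cam Pearson's r of log2 CPM ran from 0.14 to 0.89 with a median of 0.60. After group means were taken out it ran from -0.17 (Scn7a with Gfra3) to 0.88 with a median of 0.57, and Scn7a with Sox10 had 0.06. The highest pair was Ngfr with Sox10, at r = 0.89 (Spearman's rho 0.92). That pair had 0.88 within groups and 0.85 without the 2 libraries farthest from the median. The 7 pairs with L1cam ran from -0.14 to 0.27. All genes of a library share its depth and tissue make-up, and these values are descriptions over 16 libraries that fall into 4 groups.

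**Figure D4:**
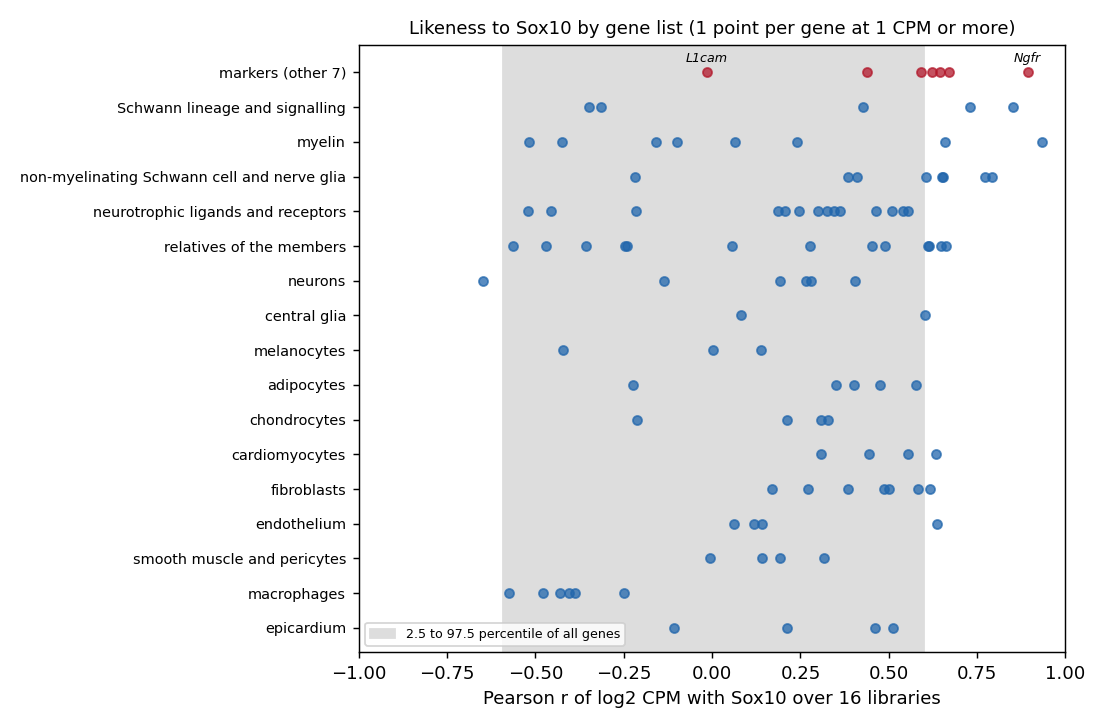
Pearson's r of each listed gene with Sox10 over the 16 libraries (log2 CPM, genes with a mean of at least 1 CPM), by list, with the central 95% of all such genes in grey. Among the markers Ngfr (0.89) lies farthest to the right and L1cam lies at -0.01. The 4 cardiomyocyte and 7 fibroblast genes lie above 0, and the 6 macrophage genes lie below 0.

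Beyond the markers, genes with a high r with Sox10 included the neural crest factor Foxd3 (r = 0.85), the nerve collagen Col28a1 (0.79), Plekhb1 (0.77) and Erbb3 (0.73). Of the 21 other glial genes at 1 CPM or more 5 lay above 0.7, these 4 among them, where 0.401% of 14228 genes did. The median r of the 21 was 0.41, against 0.50 for 4 cardiomyocyte genes and 0.49 for 7 fibroblast genes, of which 0 lay above 0.7. The other lists for other cell types had lower medians, down to -0.42 for the 6 macrophage genes. A middling r with Sox10 was thus not particular to glial genes. The 8 myelin genes at 1 CPM or more ran from -0.52 to 0.93 with a median of -0.02, and 1 of them lay above 0.7. Mbp (-0.43) and Pmp22 (-0.52), which other cells also express, were among the lowest. The 10 genes most like the mean profile of the 8 markers included Sox6 (r = 0.89), Pcdh18, Apod, Ubtd2, Pygm, Mmp2, Sema4f, Il1rl2 and Gas7, out of 14229 genes ranked.

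The wider glial lists gave no gene called by edgeR in any comparison. In Swhtr null slices 20 of 30 tested genes had a higher and 10 a lower fitted level in treated libraries, with a median of 0.32, and 5 of the higher and 1 of the lower had an unadjusted p under 0.05, where 16.5% of all genes did. DESeq2 called 2 of them, where it called 1.84% of all genes, and limma voom 0. Of the 12 genes of non-myelinating Schwann cells and nerve glia, 11 were higher, with a median of 0.61. Of 12 tested myelin genes 5 were higher and 7 lower, with a median of -0.04. Of 6 lineage genes 4 were higher and 2 lower, with a median of 0.37. With the replicate number as a block 4 of the 30 were called, where 2.47% of all genes were, namely Drp2, Col28a1, Plekhb1 and Gap43. In WT slices 10 of the 30 were higher and 20 lower in treated libraries, with a median of -0.08, and 0 had an unadjusted p under 0.05. Between untreated genotypes 6 were higher and 24 lower in Swhtr null libraries, with a median of -0.39, and 6 of the lower had an unadjusted p under 0.05, where 5.36% of all genes did. Between treated genotypes 16 were higher and 14 lower in Swhtr null libraries, with a median of 0.02. DESeq2 and limma voom called 0 of the 30 in these 3 comparisons.

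Among the most abundant of these genes, Col28a1 averaged 9.67 ± 3.495 CPM in Swhtr null treated and 6.21 ± 2.80 CPM in Swhtr null untreated libraries (SD, n = 4 each; log2 fold change 0.65, edgeR adjusted p = 0.267). The cell adhesion gene Ncam1 averaged 37.5 ± 8.05 CPM in Swhtr null treated and 37.0 ± 0.799 CPM in Swhtr null untreated libraries (0.02, edgeR adjusted p = 0.980). Pmp22 averaged 216 ± 44.3 CPM in Swhtr null treated and 274 ± 54.6 CPM in Swhtr null untreated libraries (-0.34, edgeR adjusted p = 0.267). None of these differences passed the test. Gap43, a growth-associated protein of regrowing axons and of Schwann cells without axons, and Plekhb1 were picked after their values were seen, as the 2 genes that DESeq2 called. Gap43 averaged 3.56 ± 1.85 CPM in Swhtr null treated and 1.34 ± 0.914 CPM in Swhtr null untreated libraries (1.42, edgeR adjusted p = 0.138). Plekhb1 averaged 2.70 ± 1.35 CPM in Swhtr null treated and 1.20 ± 0.425 CPM in Swhtr null untreated libraries (1.17, edgeR adjusted p = 0.0909).

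Ngfr and Gfra3 are receptors of neurotrophic factors, and 16 further ligands and receptors of that kind were tested. In Swhtr null slices 10 had a higher and 6 a lower fitted level in treated libraries, with a median of 0.11 and none called. Artn, the ligand of Gfra3, averaged 1.72 ± 0.692 CPM in Swhtr null treated and 1.40 ± 0.835 CPM in Swhtr null untreated libraries (0.31, edgeR adjusted p = 0.760). It did not pass the test. Gfra1, the co-receptor for GDNF, was picked after its values were seen because DESeq2 and limma voom called it, and it had a log2 fold change of 1.98 (SE 0.563) with an edgeR adjusted p of 0.0997. DESeq2 alone called the signalling receptor Ret as lower in Swhtr null treated libraries (log2 fold change -0.64 in edgeR, adjusted p = 0.124) and the neuregulin gene Nrg1 as lower in Swhtr null untreated than in WT untreated libraries (log2 fold change -1.20 in edgeR, adjusted p = 0.753).

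Of 16 tested neuronal genes 12 were higher and 4 lower in Swhtr null treated libraries, with a median of 0.38 and none called. The relatives of the markers (other S100, SOX, channel and adhesion genes) had 10 of 17 higher, with a median of 0.12 and none called. Within the lists for other cells, the fibroblast gene Dpt rose in Swhtr null treated libraries (log2 fold change 0.97, edgeR adjusted p = 0.0486) and the epicardial gene Krt19 fell by 2.25 on the log2 scale (edgeR adjusted p = 0.00397). EdgeR called no other listed gene beside S100b in any comparison. In the Swhtr null treatment comparison DESeq2 called 11 genes of the lists outside the glial ones, among them the cardiomyocyte genes Myh6, Tnnt2, Actc1 and Ryr2, Comp and Tcf21 as higher and the macrophage gene C1qa as lower, and limma voom called 5, Comp and C1qa among them. DESeq2 also called Col2a1 as higher and Krt19 as lower in WT treated libraries.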

How the data were processed

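The authors prepared libraries from heart slice RNA, mapped paired-end reads to mm10 using STAR and used GenomicAlignments to count reads on Ensembl genes, and the deposited values are raw counts. The kit named in the labels is not the one in the study's methods, and whether counting used strand is not given in the sources used here. Positions are from GENCODE M21, in which 55227 of 55487 identifiers were found.

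The counts were fitted with edgeR 4.0.16 in R 4.3.3 (TMM, robust quasi-likelihood test, 4 group means, 12 residual degrees of freedom) over the 24971 genes with at least 10 counts in all. Benjamini-Hochberg adjustment ran over all genes tested. Called genes had an adjusted p under 0.05 together with a log2 fold change beyond 0.58 in size. Correlations used log2 CPM with a prior count of 2. Alternatives were DESeq2 1.42.0, limma 3.58.1 (voom with quality weights), the libraries compared only, DESeq2's size factors, filterByExpr, no filter, no fold threshold, a replicate block and leaving out each library.

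The members and the 16 gene lists (150 genes) were chosen with earlier results of these data known. Genes named are all members, up to 4 most abundant genes of a list, called genes, those under 10 counts, and the 10 most like the members, and further names were chosen after their values were seen. A few genes named by this rule are left out of the text. Same-numbered Swhtr null libraries deviated together from their group means (r 0.148 to 0.591, over 0.1 in 4 of 4 pairs), so the numbers were taken to pair them. The labels do not say what a number marks. Some unlike numbers passed 0.1 too, and 3 of 4 treated libraries were closest to the untreated library of their own number. Swhtr null treated replicate 3 was closer to untreated replicate 4 (r 0.334) than to untreated replicate 3 (0.259). Calls with the block rest on this pairing. All 24 pairs of libraries within groups differed by more than sampling noise (chi-square per degree of freedom at least 7.62). The fits were tested on simulated data.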

Additional observations from a re-analysis of the deposited data

Results flagged for a closer look

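In 2 of the 32 combinations of a marker and a group, 1 library stood far from the other 3 by Dixon's test at the 95% level, a level that chance passes in about 1 in 20 groups. Kcna1 was 0.836 CPM in Swhtr null treated replicate 4, against 1.90, 1.96 and 1.97 CPM in the other libraries of that group. Cdh19 was 11.9 CPM in WT untreated replicate 2, against 6.65, 7.502 and 7.52 CPM in the others.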

How the results depend on the processing

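In the Swhtr null treatment comparison edgeR called 155 genes, 1 marker and 0 other glial genes. DESeq2 called 460 genes, 2 markers and 2 other glial genes, and limma voom 0 markers. On the libraries compared only, 6 genes and 0 markers were called, and without a fold threshold 544 genes. With the replicate number as a block (numbers taken as pairs) 616 genes, 2 markers and 4 other glial genes were called. Leaving out 1 library gave 22 (without Swhtr null untreated replicate 4) to 575 genes (without Swhtr null untreated replicate 2), 0 to 2 markers and 0 to 4 other glial genes. In the WT comparison, where edgeR called 0 genes, DESeq2 called 9, limma voom 5, and the fits with no filter, with the libraries compared only and with no fold threshold 1 each, against 19 with the block and 0 to 3 with 1 library left out. DESeq2 called 35 genes between treated genotypes, against 23 by edgeR. With the block, 1 marker (Scn7a) was called between untreated genotypes, and 52 genes and 2 markers (S100b and Scn7a) for the difference of responses. In WT slices same-numbered libraries correlated at -0.108 to 0.319, over 0.1 in 2 of 4 pairs, between untreated genotypes at 0.00762 to 0.378, over 0.1 in 3 of 4, and between treated genotypes at -0.0154 to 0.306, over 0.1 in 1 of 4, so in none of these did every pair pass 0.1. Of 952 alternative values of the markers' fold changes none moved by more than the spread between replicates. Leaving out 1 library can hardly shift a mean of 4 libraries by that much, so no stability is read from this count. Of the 952 values 26 changed sign, 0 of them in the Swhtr null treatment comparison. Among them was L1cam between untreated genotypes, at 0.01 without Swhtr null untreated replicate 2 against -0.15 with it, so the lower level of all 8 markers in Swhtr null untreated libraries did not hold for L1cam there. The causes of these moves were not tested. Counts under 20 in single libraries limit S100b, Sox10 and Gfra3.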
